A study of Mus musculus with 4 samples.

Results

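The transcripts of 6 genes of the HCN and KCNQ channel families were measured in single cells of mouse frontal cortex and hippocampus. The genes are Hcn2, Hcn3, Hcn4, Pex5l, Kcnq3 and Kcnq5, and each was found by its symbol among the 43348 features of the count files. They were chosen as genes of the h-current and the M-current. HCN channels open on hyperpolarisation and carry the h-current, a depolarising current near rest that cyclic AMP enhances. Pex5l encodes TRIP8b, an auxiliary subunit that sets the trafficking and cyclic AMP sensitivity of HCN channels. KCNQ channels carry the M-current, a slow potassium current that restrains repeated firing and that muscarinic receptors close.

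Cells of the medial ganglionic eminence lineage were labelled with TdTomato (Ai14) by Nkx2.1-Cre, sorted by fluorescence and captured as droplets with 10x chemistry. Both Grin1 alleles were floxed in the Grin1-null mice and wild type in the WT mice, to remove the obligatory NMDA receptor subunit from the lineage. The paper reports Grin1 as missing or much lower in the null interneurons, but not in glutamatergic neurons. Mice were 18 to 20 days old. The driver also labels members of the lineage other than interneurons and misses interneurons of other origin. The files also held cells with markers of glutamatergic neurons, oligodendrocytes, astrocytes and microglia.

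There were 3 WT libraries and 2 null libraries from each region, told apart by barcode suffix. The study's methods give kit version 2 for replicate 1 and version 3 for the other replicates, so a difference between replicate 1 and the others is also one between kits. The WT cortical libraries of replicates 1, 2 and 3 held 9306756, 14212183 and 28057207 UMIs (unique molecular identifiers, 1 per captured transcript). The WT hippocampal libraries held 10555408, 8782181 and 20639002. In the null mice the cortical libraries held 1488601 and 25688337 UMIs and the hippocampal libraries 3856745 and 47338167. Of 26987 cells in the files, 26201 passed the cell filters, from 177 cells in null cortex replicate 1 to 4599 in WT hippocampus replicate 2.

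Cells fell into 35 clusters. They were named from fixed marker genes as somatostatin cells (SST, with the Th-expressing cluster TH), parvalbumin cells (PVALB), neurogliaform cells (NGFC), glutamatergic neurons (GLUT), oligodendrocyte precursors (OPC), newly formed (NFOL) and mature (OLIGO) oligodendrocytes, astrocytes (ASTRO), microglia, endothelial cells and choroid plexus (CP). The named interneurons numbered 11074, of which 7872 were WT. WT hippocampus replicate 2 stood apart from the other libraries. Its median was 1479 UMIs per cell, against 2912 to 9763 in the others, and 13.8% of its cells lay in unnamed clusters. Single clusters of low depth held 98.1% of its OLIGO, 99.2% of its NGFC and 56.5% of its SST cells. The main tested changes that use its cells are also given without it, and means over 6 WT libraries include it. At most 12 cell barcodes were shared by any pair of libraries, and at most 0.552% of the smaller one.

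On GRCm38, Hcn2 (ENSMUSG00000020331) lies on chromosome 10 from 79716634 to 79736108 and Hcn4 (ENSMUSG00000032338) on chromosome 9 from 58823412 to 58863175, both on the plus strand. On the minus strand lie Hcn3 (ENSMUSG00000028051; chromosome 3, 89146074 to 89160196) and Pex5l (ENSMUSG00000027674; chromosome 3, 32949408 to 33143247). Kcnq3 (ENSMUSG00000056258; chromosome 15, 65986387 to 66286642) and Kcnq5 (ENSMUSG00000028033; chromosome 1, 21398403 to 21961942) are on the minus strand too. The authors extended gene ends by up to 4 kb. Within that distance, no other protein-coding gene overlapped a member on its own strand.

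The h-current genes had a different profile in interneurons from that in oligodendrocytes. Levels are given as CPM, the UMIs of a gene per 1000000 UMIs of all cells of a class in a library, with the mean and SD over WT libraries (n = 6, and n = 5 for GLUT). Hcn2 averaged 39.9 ± 9.24 CPM in SST, 55.6 ± 11.9 in PVALB and 34.7 ± 15.1 in NGFC cells. In OLIGO cells it averaged 140.9 ± 107 CPM, with a wide spread between libraries that followed the region. Pex5l was highest in OLIGO, at 185.9 ± 93.7 CPM, and in GLUT cells, at 160.2 ± 72.6 CPM. Among interneurons it averaged 39.8 ± 5.14 CPM in SST, 17.0 ± 7.64 in NGFC and 10.0 ± 5.06 in PVALB cells. Hcn3 averaged 20.3 ± 13.0 CPM in PVALB and 15.1 ± 10.7 in NGFC cells, and 0.403 CPM in OLIGO cells. The PVALB mean includes 1 library at 46.7 CPM, where the next had 16.5. In SST cells Hcn3 was 21.5, 15.2 and 13.8 CPM in cortical and 37.2, 11.3 and 23.3 in hippocampal libraries.

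Hcn4 was near the limit of detection in every class. Over all WT libraries it gave 30 UMIs in 4924 SST cells, 16 UMIs in 1339 NGFC cells and 1 UMI in 1609 PVALB cells. Its means were 0.960 CPM in SST, 1.79 in NGFC and 1.68 in GLUT cells, against 0.0254 in PVALB and 0.0571 in OLIGO cells. It did not pass the filter on low counts in any comparison, so differences in Hcn4 were not detectable at this depth.

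Both M-current genes were measured in every neuronal class and in some glial classes. Kcnq3 averaged 140.8 ± 60.7 CPM in SST, 125.5 ± 62.1 in PVALB and 172.7 ± 52.0 in GLUT cells. It averaged 42.9 ± 19.4 CPM in NGFC, 93.2 ± 37.1 in ASTRO and 31.5 ± 14.2 in OLIGO cells. Kcnq5 averaged 11.3 ± 3.42 CPM in SST, 20.1 ± 12.1 in PVALB, 20.9 ± 6.49 in NGFC and 38.7 ± 26.0 in GLUT cells, 12.1 ± 9.70 CPM in NFOL and 0.358 CPM in OLIGO cells.

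**Figure D1:**
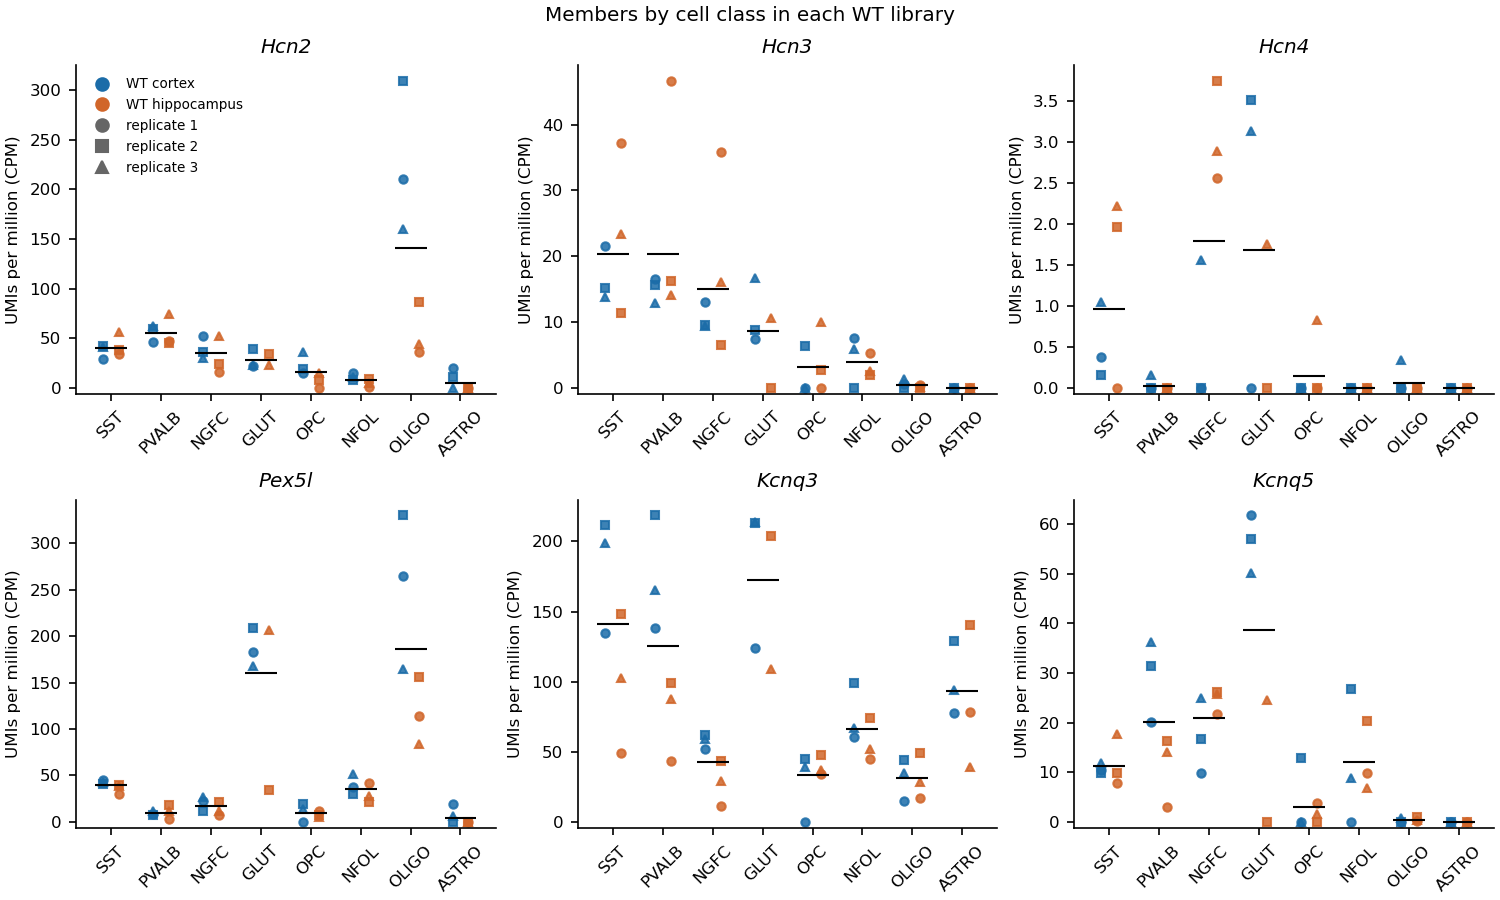
CPM of the 6 genes (panels) in each cell class, 1 point per WT library (colour, region; shape, replicate), with the mean over libraries as a line. Hcn2 and Pex5l reached means of 140.9 and 185.9 CPM in OLIGO cells, where Hcn3 and Kcnq5 averaged 0.403 and 0.358 CPM.

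The share of cells with at least 1 UMI was read against a class that should lack the gene and after thinning each cell to 1000 UMIs. Kcnq3 was seen in 52.7% of WT SST cells (median 6220 UMIs; 14.0% after thinning, which dropped 6.64% of the cells as too shallow). It was seen in 0.595% of CP cells (median 4328 UMIs; 0.719% after thinning, 17.3% dropped). Hcn2 and Pex5l were seen in 24.3% and 36.3% of WT OLIGO cells (median 3743 UMIs), and in 10.5% and 14.1% after thinning, which dropped 11.3%. In ASTRO cells (median 2140 UMIs) they were seen in 0.984% and 0.656%, and in none of the thinned cells, with 18.4% dropped. In the 168 CP cells the shares were 3.57% and 2.38%, and 0 after thinning. In the 50 endothelial cells (median 1896 UMIs) they were 12% and 2%, and 9.52% and 2.38% after thinning, with 16% dropped; Hcn2 there rested on 6 UMIs. Kcnq5 was seen in 18.9% of PVALB cells (median 6862 UMIs; 3.15% after thinning, 1.24% dropped). In OLIGO cells the share with Kcnq5 was 0.146%, and 0.0236% after thinning.

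To ask how the interneuron classes differ in these channels, UMIs were summed per WT library and class and compared with the library as a block. A gene was called where its adjusted p was under 0.01 and its natural-log change at least 0.1, which is 0.144 on the log2 scale. With both regions in the fit, PVALB cells had more Hcn2 and Kcnq5 and less Pex5l than SST cells. So 3 of 5 tested members were called, where 23.0% of all 10189 tested genes were. For Kcnq5 the difference lay in cortex, at 20.1, 31.3 and 36.1 CPM in PVALB against 10.4, 9.85 and 11.8 in SST cells. In hippocampus PVALB cells had 2.92, 16.2 and 14.0 CPM against 7.87, 9.82 and 17.8, which is less in replicates 1 and 3. Pex5l fell by 2.06 (log2; SE 0.167; adjusted p 8.65e-09). Hcn2 rose by 0.50 (SE 0.116; adjusted p 0.00212) and Kcnq5 by 1.14 (adjusted p 0.000396). Kcnq3 (-0.17; adjusted p 0.110) and Hcn3 (-0.10; adjusted p 0.633) were not called. The Hcn2 and Kcnq5 calls were lost without WT cortex replicate 2 (0.51 and 0.95; adjusted p 0.0137 and 0.0118). They were also lost without WT cortex replicate 3 (0.45 and 0.85; adjusted p 0.0340 and 0.0337). Over the libraries left out in turn, adjusted p ran from 0.00111 to 0.0340 for Hcn2 and from 3.22e-05 to 0.0337 for Kcnq5. With WT hippocampus replicate 2 left out all 3 calls held. Without the library block, the Hcn2 and Kcnq5 calls were lost too (0.49 and 0.995; adjusted p 0.25 and 0.0472). With classes given to single cells Kcnq3 was called (-0.42; adjusted p 0.00812). Over the alternatives other than single libraries left out, adjusted p ran from 0.000695 to 0.25 for Hcn2, 2.62e-10 to 0.0472 for Kcnq5 and 0.00812 to 0.954 for Kcnq3.

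NGFC cells had less Pex5l and Kcnq3 and more Kcnq5 than SST cells. Of 5 tested members 3 were called, against 24.0% of all genes. Kcnq3 fell by 1.73 (SE 0.102; adjusted p 4.93e-11), Pex5l fell by 1.34 (adjusted p 6.18e-06), and Kcnq5 rose by 1.05 (SE 0.264; adjusted p 0.00368). The Kcnq5 call was lost without WT cortex replicate 3 (1.01; adjusted p 0.0121) and without WT hippocampus replicate 2 (0.95; adjusted p 0.0197), in a range of 0.00432 to 0.0197 over the libraries left out. It was also lost without the library block (0.98; adjusted p 0.0446, in a range of 3.31e-06 to 0.0446 over the other alternatives). Hcn2 (-0.24; adjusted p 0.226) and Hcn3 (-0.42; adjusted p 0.0628) were not called.

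Between NGFC and PVALB cells, Hcn2 fell by 0.74 (SE 0.155; adjusted p 0.000850) and Kcnq3 fell by 1.55 (SE 0.110; adjusted p 1.43e-09) in NGFC. These were 2 of 5 tested members, against 23.9% of all genes. Without WT cortex replicate 3 the Hcn2 change was -0.66 and no longer called (adjusted p 0.0115, in a range of 0.000229 to 0.0115 over the libraries left out). Without the library block it was -0.69 and its adjusted p 0.0724, in a range of 1.03e-05 to 0.0724 over the other alternatives. Pex5l was higher in NGFC by 0.72 but was not called (adjusted p 0.0288), and Kcnq5 changed by -0.09 (adjusted p 0.851). That Kcnq5 value averages opposite differences in the regions. In cortical replicates 1, 2 and 3 NGFC cells had 9.8, 16.6 and 25 CPM against 20.1, 31.3 and 36.1 in PVALB cells. In hippocampus they had 21.8, 26.2 and 25.7 against 2.92, 16.2 and 14, where 3 counts would be 8.76 CPM in PVALB replicate 1. The test of region changes between classes, given below, did not call Kcnq5 there (1.83; adjusted p 0.219). The Hcn2 and Kcnq3 calls held without WT hippocampus replicate 2 (-0.70 and -1.63).

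Both h-current genes that could be tested were higher in mature oligodendrocytes than in their precursors. From OPC to OLIGO cells Pex5l rose by 4.47 (log2; SE 0.239; adjusted p 7.25e-16) and Hcn2 by 3.16 (adjusted p 1.78e-11). They were 2 of 3 tested members, against 52.1% of 9262 tested genes. Kcnq3 changed by 0.29 (adjusted p 0.271), and by -0.26 when libraries were scaled by their size alone. Both calls held without WT hippocampus replicate 2 (Pex5l 4.42, Hcn2 3.06). In OPC cells Pex5l averaged 9.75 ± 6.71 CPM, and in NFOL cells 35.1 ± 10.6 CPM. Hcn2 averaged 15.4 ± 11.9 CPM in OPC and 7.86 ± 4.84 CPM in NFOL cells. DESeq2 called 3, 3, 2 and 2 members in these 4 class comparisons, as edgeR did. Over the alternatives run, all genes called there ran from 486 to 3324, 914 to 3461, 760 to 3488 and 3391 to 6512.

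Within the classes, levels also differed between clusters, given here as pooled WT CPM. Among SST clusters, Kcnq3 was 235.2 CPM in the Mgat4c cluster, 181.0 in the Cbln4 cluster and 143.5 in the Crh and Tac2 cluster. It was 40.5 CPM in the cluster with Chodl, Nos1 and Npy, the long-range projecting type. That cluster gave no Kcnq5 UMI in 253 cells (2914654 UMIs), which allows up to 1.03 CPM by the limit of 3 counts. The Crh and Tac2 cluster had 28.5 CPM of Kcnq5 and the Cbln4 cluster 5.98. Pex5l was 63.8 CPM in the Myh8 cluster, 58.1 in the Mgat4c cluster and 12.3 in the Chodl cluster. The TH cluster had 63.3 CPM of Hcn2, and the Chodl cluster 22.6.

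Among PVALB clusters, the main Pvalb and Tac1 cluster had 173.4 CPM of Kcnq3 and 32.9 of Kcnq5, where the Pthlh cluster had 62.7 and 6.64. A small cluster led by Crabp1, also with Pthlh among its leading genes, had 216.3 and 37.0 CPM in 43 WT cells. In GLUT cells, Kcnq5 was 49.8 and 57.4 CPM and Pex5l 202.2 and 172.3 CPM in the larger pair of clusters. Among mature oligodendrocytes, Hcn2 was 8.29 CPM in the Ninj1 and Rras2 cluster, 33.4 in the Opalin cluster, 166.6 in the Ptgds cluster and 208.2 in the Klk6 cluster. It was 107.9 CPM in the Mgp and Mal cluster and 100.8 in the cluster of low depth. Pex5l ran from 105.6 to 212.9 CPM over the same clusters. In the NFOL clusters it was 1.62 CPM in the one with Bmp4 and 77.6 in the one with Tmem2 in the lead, where Hcn2 stayed between 2.60 and 9.85 CPM. These pooled values weight libraries by their UMIs, and the libraries contribute unequally to the clusters.

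**Figure D2:**
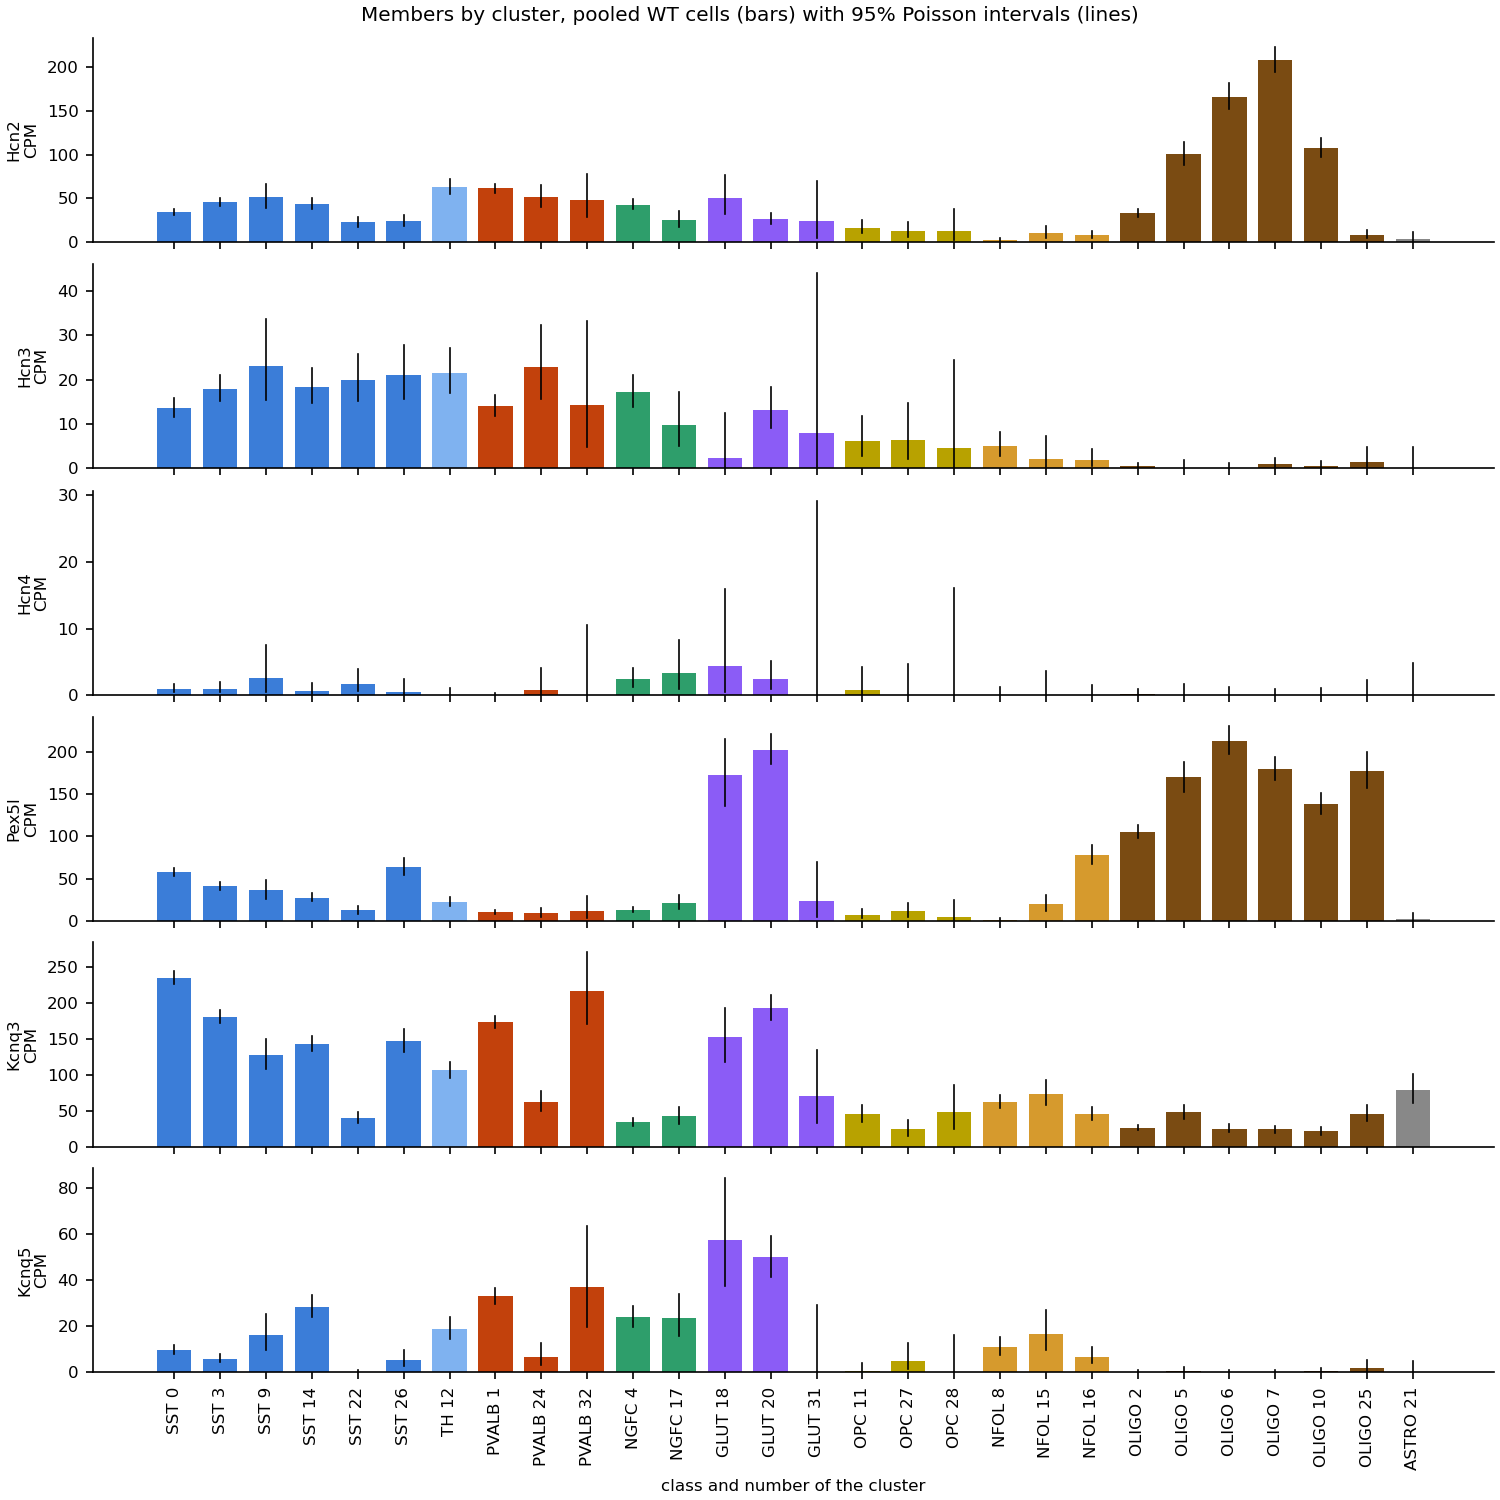
Pooled WT CPM of the 6 genes (panels) in the neuronal, oligodendrocyte-lineage and astrocyte clusters, labelled by class and number, with exact Poisson 95% intervals (lines) that cover counting error alone. Hcn2 ranged from 8.29 to 208.2 CPM over the mature oligodendrocyte clusters, and Kcnq3 from 40.5 to 235.2 CPM over the SST clusters.

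Genes with a profile over clusters like that of each member were listed from 7217 genes in 34 clusters of at least 50 WT cells, the 4 unnamed ones among them (Pearson r of log2 CPM + 1). The clusters share libraries and differ in depth, so they are not independent and no p is given. Hcn2 was most like Inpp5f (r = 0.827), Kctd3 (0.814) and Slco3a1 (0.805); Kctd3 was also in the partner list. Pex5l was most like Mast3 (0.849), Efnb3 (0.832) and Tmem151a (0.819). Hcn3 was most like Elavl2 (0.946), Slitrk4 (0.927) and Pianp (0.926). Hcn4 had too few UMIs per cluster for such a list.

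Kcnq3 was most like Lmtk3 (0.825), Ppp3ca (0.802) and Grik2 (0.798), and Kcnq5 most like Clvs1 (0.821), Atp2a2 (0.811) and Fam19a2 (0.807). An unnamed cluster had the highest level of Elavl2, Pianp, Mast3, Lmtk3 and Grik2. Between members, r was 0.627 for Hcn3 with Kcnq5, 0.605 for Kcnq3 with Kcnq5, 0.58 for Hcn3 with Kcnq3 and 0.503 for Hcn2 with Pex5l. It was 0.0575 for Hcn2 with Hcn3 and -0.208 for Hcn3 with Pex5l.

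Genes that act on these channels (27 listed: adenylyl cyclases, phosphodiesterases, muscarinic receptors, phospholipases, calmodulins, anchors) were called between classes at 32%, 32% and 32% of 25 tested in the 3 interneuron comparisons and 66.7% of 18 in OLIGO minus OPC. The shares of all genes called there were 23.0%, 24.0%, 23.9% and 52.1%. In PVALB relative to SST cells 2 rose and 6 fell, among them Adcy2 (-4.00), Chrm3 (-1.79) and Akap5 (-0.79). In NGFC relative to SST cells 3 rose and 5 fell, including Chrm3 (-2.30), Pde4d (1.81) and Adcy1 (0.83). In NGFC relative to PVALB cells 7 rose and 1 fell, Adcy8 (-3.35), with Adcy2 at 2.48. From OPC to OLIGO cells 6 rose and 6 fell, including Plcb1 (-3.49), Ank3 (2.83) and Pde4b (2.23). Between regions none was called, where the share of all genes called was at most 0.0417%, and none with the replicate block, where it was at most 2.83%. With the pair of 1 replicate left out of that block, up to 3 were called. In such fits up to 721 of all genes were called in SST, 262 in PVALB, 40 in NGFC and 241 in OLIGO cells. Between genotypes none was called, where 0.00% of all genes were, and none in a comparison of region changes between classes, where at most 0.268% were.

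To ask whether cells of 1 class differ between regions, WT hippocampus was compared with WT cortex. Kcnq3 was lower in the hippocampal library of each replicate than in its cortical library in SST, PVALB and NGFC cells. It was called in SST and PVALB cells with the replicate number as a block, and in no class without it. In SST cells, cortical replicates 1, 2 and 3 had 134.6, 212 and 198.8 CPM of Kcnq3 and hippocampal replicates 48.8, 148.3 and 102.6. In PVALB cells they had 138.1, 219 and 165.3 CPM against 43.8, 99.3 and 87.5. NGFC cells had 52.2, 61.8 and 59.3 CPM in cortex, against 11.5, 43.1 and 29.3 in hippocampus. The ranges of the regions did not overlap in PVALB or NGFC cells. In SST cells 1 hippocampal library exceeded the lowest cortical one. Here and below, ranges apart describe these libraries only, since the share of all genes with ranges apart is not given. As a percent of the cortical library of the same replicate number, hippocampal Kcnq3 was 36.2, 70.0 and 51.6 in SST and 31.7, 45.3 and 52.9 in PVALB cells.

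With region alone in the fit, 0 of 5 members were called in SST cells (0.0417% of all genes), 0 of 5 in PVALB (0.0226%), 0 of 4 in NGFC (0.00%) and 0 of 3 in OLIGO (0.00%) by edgeR. At an unadjusted p under 0.05 there were 1, 2, 1 and 2 members, among 903, 370, 204 and 123 genes. DESeq2 called 0 members in each, and 135, 27, 4 and 2 genes. Kcnq3 changed by -0.91 in SST (SE 0.393; adjusted p 0.647), -1.14 in PVALB (adjusted p 0.482) and -0.98 in NGFC (SE 0.443; adjusted p 1). Without WT hippocampus replicate 2 it changed by -1.34 (adjusted p 0.194), -1.36 (adjusted p 0.247) and -1.39 (adjusted p 0.776). Without WT hippocampus replicate 1 it changed by -0.58, -0.90 and -0.66. Adjusted p ran from 0.194 to 1, 0.247 to 1 and 0.776 to 1 over the libraries left out.

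With the replicate number as a block, Kcnq3 was called in SST and PVALB cells. It changed by -1.01 in SST (SE 0.212; adjusted p 0.00700), 1 of 5 members against 2.83% of all genes. In PVALB it changed by -1.16 (adjusted p 0.00602), 1 of 5 members against 0.723%. In NGFC 0 of 4 members were called against 0.0638% (Kcnq3 -1.03, adjusted p 0.391; 510 genes, 1 a member, at an unadjusted p under 0.05 by edgeR; 0 members by DESeq2 without the block). When the pair of libraries of 1 replicate was left out of this fit, Kcnq3 in SST lost its call without replicate 1 (-0.77; adjusted p 0.211) and without replicate 3 (adjusted p 0.0110), where its change stayed close to that of the full fit. Without replicate 2 it was -1.28 (adjusted p 4.30e-08). In PVALB it lost its call without replicate 1 (-1.02; adjusted p 0.112). It kept it without replicates 2 (-1.18; adjusted p 1.09e-05) and 3 (-1.29; adjusted p 0.00121). Over all alternatives other than single libraries left out, adjusted p ran from 4.30e-08 to 0.849 in SST and from 1.09e-05 to 0.618 in PVALB. Without the pair of replicate 2, all genes called rose too, from 339 to 721 in SST and from 64 to 262 in PVALB cells.

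Within single clusters the Kcnq3 ranges of the regions were apart in some and overlapped in others, again without the share of all genes. In the Cbln4 SST cluster the hippocampal libraries had 29.3 to 153.6 CPM and the cortical ones 170.4 to 258.3. In the main PVALB cluster they had 53.9 to 142.7 against 143.4 to 233.6 CPM, and in the TH cluster 43.7 to 52.5 against 83.6 to 173.7. The ranges overlapped in the Mgat4c SST cluster (82.0 to 233.4 against 174.3 to 300.6) and in the Pthlh PVALB cluster. The Pthlh cluster was low in Kcnq3 (62.7 against 173.4 CPM in the main cluster) and held 28.8%, 45.1% and 13.3% of hippocampal and 10.8%, 13.5% and 4.72% of cortical PVALB cells. The Mgat4c cluster (235.2 CPM) held 9.22%, 15.9% and 36% of hippocampal and 11.5%, 35.7% and 44.6% of cortical SST cells. Shares of the Cbln4 cluster (181.0 CPM) went the other way, at 42.7%, 24.8% and 21% against 13.3%, 23% and 20.1%. UMIs of oligodendrocyte markers (sum of 7) were higher in hippocampal than in cortical SST and PVALB cells. In SST cells they were 298.4, 417.8 and 205.9 CPM in cortex and 1148, 1210.0 and 680.6 in hippocampus, and in PVALB cells 123.5, 316.3 and 203.6 against 718, 1011 and 960.0, without overlap. In NGFC cells they were 1025, 76.0 and 927 in cortex and 969.8, 2019 and 469.8 in hippocampus, with overlap. UMIs of astrocyte markers (sum of 6) in SST cells were 56.5, 51.2 and 52.3 CPM in cortical and 77.1, 169.4 and 105.4 in hippocampal libraries. In PVALB cells they were 54.0, 61.9 and 38.9 against 131.3, 75.8 and 65.9, also without overlap. In NGFC cells they were 94.7, 73.7 and 70.2 against 71.7, 86.2 and 85.9, with overlap. The part of these shares and UMIs in the Kcnq3 difference was not tested.

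In WT oligodendrocytes each hippocampal library had less Hcn2 and Pex5l than each cortical one, and with the replicate block Hcn2 was called and Pex5l was not. Hcn2 was 211, 309.8 and 159.6 CPM in the OLIGO cells of cortical replicates 1, 2 and 3, and 35.5, 86.1 and 43.6 CPM in those of hippocampus. Group means were 226.8 ± 76.3 and 55.1 ± 27.2 CPM (SD, n = 3 each). Pex5l was 264.6, 330.8 and 165.1 CPM against 114.4, 156.5 and 84.3. Neither gene's ranges overlapped between regions, though the share of all genes with ranges apart is not given. Hcn2 in hippocampus was 16.8%, 27.8% and 27.3% of the cortical library of its replicate number, and Pex5l 43.2%, 47.3% and 51.1%. The null libraries, not part of this test, had 148.3 and 248.2 CPM of Hcn2 in cortical and 36.6 and 103.4 in hippocampal OLIGO cells. Their Pex5l was 288 and 149 CPM in cortical and 122 and 104 in hippocampal cells. The value of 149 lay within the WT hippocampal range.

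With region alone in the fit neither was called. Hcn2 changed by -2.04 (SE 0.436) and Pex5l by -1.09 (SE 0.387), each with an adjusted p of 1. With the replicate block, Hcn2 changed by -2.09 (SE 0.221; adjusted p 0.00112) and was called, 1 of 3 members against 0.0963% of all genes. Pex5l changed by -1.09 (adjusted p 0.0308). With a replicate's pair left out, Hcn2 held its call at -1.82, -2.26 and -2.21 (adjusted p 0.000828, 3.75e-28 and 2.33e-13). Few libraries remain beside the block in such fits, so their small adjusted p values do not measure the spread between libraries well. All genes called in OLIGO cells rose from 9 with the full block to 241 without the pair of replicate 2. Pex5l was called without replicate 2 (-1.14; adjusted p 9.53e-08) and without replicate 3 (-1.15; adjusted p 0.00146) but not without replicate 1 (-0.99; adjusted p 0.562). Over the alternatives other than single libraries left out, adjusted p ran from 3.75e-28 to 1 for Hcn2 and from 9.53e-08 to 1 for Pex5l. Without WT hippocampus replicate 2 alone, and no block, Hcn2 changed by -2.54 (adjusted p 0.192) and Pex5l by -1.36 (adjusted p 0.918), in ranges of 0.192 to 1 and 0.918 to 1 over the libraries left out.

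The Hcn2 ranges of the regions were also apart in the Klk6, Ptgds and Opalin clusters and the cluster of low depth. They overlapped in the Ninj1 and Rras2 cluster. Those of the Mgp and Mal cluster, which held cells of both regions, are not given. The share of all genes with ranges apart there is not given. In the Klk6 cluster the 2 hippocampal libraries with enough cells, replicates 1 and 3, had 68.3 and 167.3 CPM and the 3 cortical ones 229.8 to 417.1. In the Ptgds cluster, with 3 libraries from each region, they had 60.3 to 148.9 against 294.7 to 364.1 CPM. In the Opalin cluster replicates 1 and 3 had 3.22 and 11.6 in hippocampus, against 29.1 to 109.3 in 3 cortical libraries. In the shallow cluster with 98.1% of the OLIGO cells of WT hippocampus replicate 2, that library had 87.2 CPM of Hcn2. The other hippocampal library there gave 0 UMIs in 23 cells, and 2 cortical ones had 272.2 (3 UMIs in 16 cells) and 293.9 CPM. In the Ninj1 and Rras2 cluster Hcn2 ranges overlapped, at 3.06 to 9.91 against 8.82 to 15.8 CPM. For Pex5l the Ptgds cluster had 89.3 to 134 against 265.2 to 387.2 CPM. In the Ninj1 and Rras2 cluster it had 148.7 to 183.7 against 255.8 to 316 CPM. Pex5l ranges of the other clusters are not given. The share of OLIGO cells with an Hcn2 UMI was 21.1% in cortex and 5.58% in hippocampus after thinning to 1000 UMIs, with 14.3% and 9.82% of cells dropped. Unthinned it was 46.4% and 13.5%, at medians of 4086 and 3524 UMIs. Astrocytes, at a median of 2140 UMIs, gave 0.984%. Marker sums of GABAergic neurons in OLIGO cells were 47.6, 49.4 and 116 CPM in cortex and 45.3, 94.2 and 80.7 in hippocampus. Their part in the Hcn2 and Pex5l values was not tested.

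**Figure D3:**
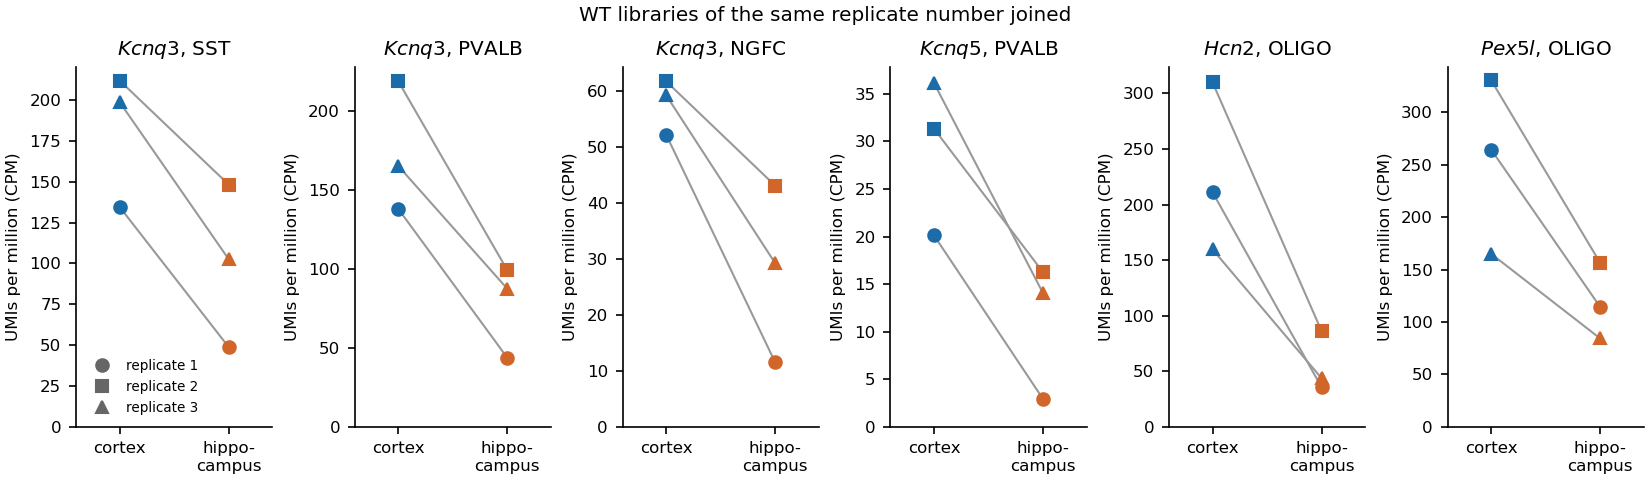
CPM in WT cortex and hippocampus, 1 point per library, with lines joining libraries of the same replicate number, for the gene and class that each panel names. In OLIGO cells the hippocampal libraries had 35.5 to 86.1 CPM of Hcn2 and the cortical ones 159.6 to 309.8.

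Kcnq5 in PVALB cells was 20.1, 31.3 and 36.1 CPM in cortex and 2.92, 16.2 and 14.0 CPM in hippocampus, without overlap. The value of 2.92 CPM is 1 UMI in 52 cells, where 3 counts would be 8.76 CPM. The Pthlh cluster, with a larger share of hippocampal PVALB cells, was low in Kcnq5 as well. Within the main PVALB cluster the ranges of Kcnq5 overlapped, at 4.49 to 22.2 CPM in hippocampus and 21.6 to 37.9 in cortex. For the class, it changed by -1.29 (SE 0.436; adjusted p 0.717), and by -1.34 with the replicate block (SE 0.352; adjusted p 0.0769). It was called with the pair of replicate 2 left out (-1.58; adjusted p 0.00285, in a range of 0.00285 to 0.919 over the alternatives other than single libraries left out). All genes called in that fit numbered 262, against 64 with the full block. In SST cells the other members changed by -0.29 (Pex5l) to 0.44 (Hcn3), with no call.

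Whether a region change differed between classes was tested in the WT libraries with the library as a block, a comparison added after the data had been seen. Of 12297 genes, 0.195% were called for PVALB minus SST, 0.268% for NGFC minus SST and 0.0732% for NGFC minus PVALB. For OLIGO minus NGFC it was 0.0407%. In each of these 4 edgeR called 0 of 5 members. In the order given, 757, 899, 707 and 986 genes had an unadjusted p under 0.05, among them 1, 0, 1 and 3 members. DESeq2 called 26, 39, 14 and 36 genes and 0 members.

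For OLIGO minus SST, 1 of 5 members was called, against 0.211% of all genes. The region change of Hcn2 in OLIGO cells minus that in SST cells was -2.17 (log2; SE 0.355; adjusted p 0.00401). The call was lost without WT cortex replicate 1 (-1.99; adjusted p 0.0331), 2 (-2.02; adjusted p 0.0225) or 3 (-2.45; adjusted p 0.0122). It was also lost without WT hippocampus replicate 1 (-2.11; adjusted p 0.0271) or 3 (-1.84; adjusted p 0.0135). It held without WT hippocampus replicate 2 (-2.58; adjusted p 8.11e-05). The count of all genes called, 26 in the full fit, ran from 1 to 90 over these 6 fits. Without the library block Hcn2 was not called either (-2.17; adjusted p 0.352, in a range of 1.72e-15 to 0.352 over the alternatives other than single libraries left out).

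For OLIGO minus PVALB, 0 of 5 members were called by edgeR, against 0.00% of all genes, with 1057 genes and 4 members at an unadjusted p under 0.05. DESeq2 called 1 member, Kcnq3, and 20 genes. Hcn2 there differed by -1.96 (adjusted p 0.0529), and in OLIGO minus NGFC by -1.90 (adjusted p 0.0856). Without WT hippocampus replicate 2 both were called (-2.44, adjusted p 0.00506, and -2.45, adjusted p 0.00398), in ranges of 0.00506 to 0.285 and 0.00398 to 0.607 over the libraries left out. Without WT hippocampus replicate 3 they were smallest, at -1.53 and -1.05. The Kcnq3 change differed by 1.24 in OLIGO minus PVALB (adjusted p 0.0427) and by 0.98 in OLIGO minus SST (adjusted p 0.0315). For Kcnq5 the difference was -1.52 in PVALB minus SST (adjusted p 0.142) and 1.83 in NGFC minus PVALB (adjusted p 0.219).

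To ask what loss of NMDA receptors in these cells changed, null and WT libraries were compared within each region. Grin1 served to check the genotype labels. In cortical SST cells it had 153.4, 253.8 and 232.5 CPM in WT and 36.7 and 27.9 in null libraries, and in hippocampal SST cells 120.1, 174.3 and 158.1 against 21.1 and 21.9. In cortical PVALB cells it had 110.7, 214.1 and 179.6 CPM against 43.1 and 23.6. Grin1 changed by -2.74 and -2.79 in cortical and hippocampal SST cells (adjusted p 0.0293 and 0.0260) and by -2.51 and -2.87 in PVALB cells (adjusted p 0.0316 and 0.0689). In hippocampal NGFC cells it changed by -2.35 (adjusted p 0.960). None of these passed the threshold of 0.01 in edgeR. With DESeq2 the adjusted p was 1.68e-12, 7.63e-13, 1.23e-05, 6.92e-07 and 0.000446 in the same order. Over the alternatives other than single libraries left out, it ran from 1.68e-12 to 0.0685, 7.63e-13 to 0.201, 5.14e-07 to 0.0391, 7.48e-08 to 0.172 and 0.000446 to 0.991. The hippocampal changes of Grin1 ran from -2.66 to -2.46 over the 3 classes without WT hippocampus replicate 2, and edgeR called none of them.

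No channel gene that could be tested was called between genotypes. By edgeR, 0 of 5 members were called in cortical SST cells (0.00% of all 12851 tested genes), 0 of 5 in hippocampal SST cells (0.00%) and 0 of 5 for the difference of the regions (0.00%). At an unadjusted p under 0.05 there were 0 members in each, among 273, 482 and 65 genes, and DESeq2 called 0 members and 2, 2 and 0 genes. In PVALB cells edgeR called 0 of 5 members in cortex (0.00% of 9768 genes), hippocampus (0.00%) and their difference (0.00%). There, 359, 306 and 111 genes and 0 members had an unadjusted p under 0.05, and DESeq2 called 13, 1 and 0 genes and 0 members. In hippocampal NGFC cells 0 of 5 members were called by edgeR (0.00% of 9765 genes), with 311 genes and 0 members at an unadjusted p under 0.05, and 1 gene and 0 members by DESeq2. In OLIGO cells edgeR called 0 of 3 members in cortex (0.00% of 10144 genes), hippocampus (0.00%) and their difference (0.00%). At an unadjusted p under 0.05 there were 145, 141 and 50 genes and 0 members, and DESeq2 called 0 genes in each.

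Kcnq5 had a negative change in null cells of each interneuron class tested, and none was called; in hippocampal SST cells it turned positive without WT hippocampus replicate 3. In cortical PVALB cells it was 20.1, 31.3 and 36.1 CPM in WT and 7.19 and 21.8 in null libraries, and in hippocampal NGFC cells 21.8, 26.2 and 25.7 against 10.0 and 20.4. The ranges overlapped in the first and not in the second. In hippocampal PVALB cells they overlapped too, at 2.92, 16.2 and 14.0 CPM in WT and 6.39 and 7.98 in null libraries. Hippocampal SST cells had 8.12 and 10.5 CPM in null libraries, above WT of the same replicate number (7.87 and 9.82). WT replicate 3 there had 17.8 CPM. The changes were -0.72 and -0.70 in cortical and hippocampal PVALB cells, -0.59 in hippocampal NGFC cells and -0.23 and -0.32 in cortical and hippocampal SST cells (adjusted p 0.960 to 1). With 1 null library left out, the change in cortical PVALB cells was -0.48 without replicate 1 and -2.02 without replicate 2. In hippocampal NGFC cells it was -0.32 and -1.20. Null cortex replicate 1 had 27 PVALB cells, where 3 counts would be 10.8 CPM, above its 7.19 CPM of Kcnq5. The change of -2.02 has that library as its only null library. Hippocampal PVALB and NGFC cells had -0.45 and -0.52 without WT hippocampus replicate 2.

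The null and WT libraries also filled the clusters of a class differently. The Chodl cluster, which gave no Kcnq5 UMI, held 2.73% and 20.1% of null and 3.69% to 11.4% of WT cortical SST cells. The main PVALB cluster held 70.4% and 46.6% of null and 82% to 92.5% of WT cortical PVALB cells, and the Crabp1 cluster 22.2% and 23.5% against 1.99% to 7.19%. Within the main cluster, cortical Kcnq5 was 9.67 and 20.3 CPM in null libraries, from 2 UMIs in 19 cells and 32 UMIs in 115, and 21.6 to 37.9 in WT libraries. In the Cbln4 SST cluster of cortex Kcnq5 was 21.5 and 21.2 CPM in null libraries, from 6 UMIs in 20 cells and 21 UMIs in 90, against 1.43 to 6.78 CPM in WT. In the Crh and Tac2 SST cluster it was 9.77 and 14.0 against 26.4 to 33.0 CPM, with 1 UMI in the 10 cells of null replicate 1.

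Other members also had ranges apart in some cortical clusters with 2 null and 3 WT libraries, and overlapping ranges in others. Pex5l was higher in null in the Mgat4c SST cluster (91.4 to 91.6 against 47.7 to 60.2 CPM), the Cbln4 SST cluster (78.9 against 41.8 to 55.8) and the main PVALB cluster (17.7 to 19.3 against 8.59 to 11.8, with 4 UMIs in null replicate 1). It was lower in the Crh and Tac2 cluster (0 to 22.8 against 24.6 to 29.2). Kcnq3 was higher in null in the Cbln4 cluster (265.5 to 291.3 against 170.4 to 258.3) and lower in the Crh and Tac2 cluster (97.7 to 98.0 against 122.5 to 195.3). Hcn3 was higher in the Mgat4c cluster (21.4 to 32.7 against 10.7 to 16.4). Ranges overlapped in the Mgat4c cluster for Hcn2 (16.4 to 54.2 against 32.3 to 35.8) and Kcnq3 (247 to 320.6 against 174.3 to 300.6). They also overlapped for Hcn2 and Hcn3 in the Cbln4 and main PVALB clusters, and for Kcnq3 in the main PVALB cluster. The share of all genes with ranges apart is not given, and these cluster differences were not tested.

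Pex5l in cortical PVALB cells was 8.23, 7.83 and 11.3 CPM in WT and 25.1 and 16.0 in null libraries, without overlap (0.97; SE 0.479; adjusted p 1), where 0.00% of all genes were called. The 25.1 CPM came from the 27 cells of null replicate 1, where 3 counts would be 10.8 CPM.

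Hcn2 differed between the null libraries themselves. In cortical SST cells it was 25.5 CPM in null replicate 1 and 57.0 in null replicate 2, where WT replicates 1, 2 and 3 had 29.1, 42 and 41.0. In cortical PVALB cells the null libraries had 39.5 and 87.5 CPM, on either side of WT values of 45.7, 58.9 and 62.5, and in hippocampal PVALB cells 32.0 and 96.9, on either side of 46.7, 45.1 and 74.5. Kcnq3 in OLIGO cells changed by -0.94 in cortex and -0.71 in hippocampus (adjusted p 1 for each). Cortical NGFC cells came from 1 null library with enough cells and could not be tested. Its 100 cells had 60.6 CPM of Hcn2, 56.1 of Kcnq3, 24.4 of Pex5l and 18.1 of Kcnq5.

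**Figure D4:**
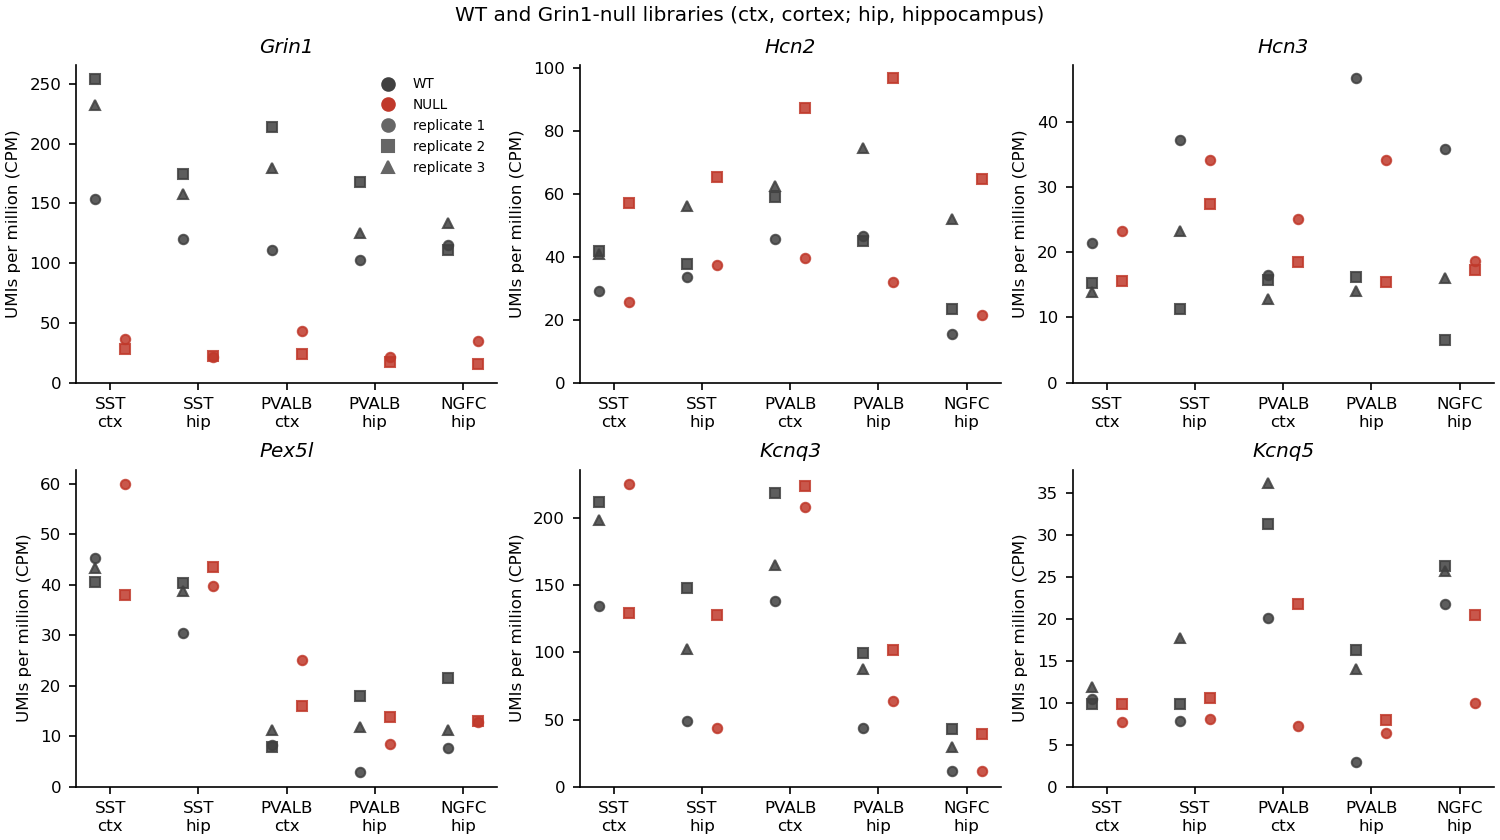
CPM of Grin1 and 5 of the channel genes (panels) in WT (grey) and null (red) libraries of each interneuron class and region tested, 1 point per library, with shape for the replicate. Grin1 lay at 15.5 to 43.1 CPM in the null libraries and from 102.2 CPM upwards in the WT libraries; Hcn2 in cortical PVALB cells lay at 39.5 and 87.5 CPM against 45.7 to 62.5.

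Of the other reportable genes of these families, 3 exceeded 20 CPM in a class. Kcne1l had 109.2 ± 60.9 CPM in ASTRO cells (n = 6). Kcne2 had 244 CPM in the CP cells of WT hippocampus replicate 3 and gave no UMI in the 12 CP cells of WT cortex replicate 3 or the 12 of WT hippocampus replicate 2, which allows up to 98.0 and 333 CPM. Kcnq1 had 26.5 CPM in the endothelial cells of 1 library, from 2 UMIs in 26 cells, where 3 counts would be 39.8 CPM. None of them passed a test.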

How the data were processed

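UMI counts per gene and cell in 4 matrices, 1 for each region and genotype, were deposited by the authors. They had been made with Cell Ranger (2.1.1 by the submitters' notes, 3.0.2 by the matrix headers) on mm10 with gene ends extended by up to 4 kb. No normalization had been applied. Libraries of a matrix were told apart by barcode suffix, and cells per suffix were matched to the cell numbers given for each replicate.

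Cells with 200 to 6000 genes and under 30% of UMIs from the 37 mitochondrial genes were kept. They were integrated and clustered with Seurat 5.3.0 (2000 variable features, 25 dimensions, resolution 1.0) in R 4.3.3. Genes of the Hcn, Kcnq and Kcne families were left out of the variable features. A cluster was named for the class with the highest marker score among those with at least 3 markers past 20 CPM and past their mean over clusters. Of 4 unnamed clusters (1684 cells, in no class but in the profiles over clusters), 1 had no such class. The other 3 had one but were led by genes of another class, had markers of unrelated classes, or had no own marker among the 10 leading genes and under 1/3 of their library's median UMIs. An SST cluster at 0.450 of that median also had no own marker there and was kept. UMIs were summed per library and class with at least 10 cells. Sums were tested with edgeR 4.0.16 (quasi-likelihood, TMM, filterByExpr, two-sided, Benjamini-Hochberg over all genes tested). The groups were region and genotype, region alone in WT, and class with the library as a block in WT. In simulated data with the library numbers and sizes of SST cells, the region and genotype tests recovered most planted changes at low spread between libraries. At high spread they recovered most 8-fold changes, a minority of 4-fold and almost no 2-fold ones. Changes were planted only in genes above a minimum count, and replicates were not simulated as paired. Region and genotype tests of PVALB, NGFC and OLIGO cells were not simulated. The recovery given does not cover those tests or members with few UMIs. Depth ranged from 1488601 to 47338167 UMIs per library. Exact Poisson 95% intervals and the limit of 3 counts for a count of 0 cover counting error alone. Other tools were Python 3.11.15, numpy 2.4.6, scipy 1.17.1, pandas 2.3.3 and matplotlib 3.10.9.

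Alternatives were DESeq2 1.42.0, library-size scaling, no filter on low counts, an adjusted p of 0.05, a replicate block or no library block, a fit of the compared groups alone, a strict cell filter (1000 genes, 10% mitochondrial), removal of 249 doublets marked by Scrublet (scanpy 1.11.5), classes given to single cells, and each library left out. The comparison of region changes between classes, the fits without shallow or Chodl clusters, and the block with a replicate's pair left out were chosen after seeing the data. Whether libraries of the same replicate number are paired was checked once. After group means were removed, sums of SST, PVALB and NGFC cells correlated at r of 0.182 to 0.79 over 23 pairs. Where a group has 2 libraries, its pairs mirror each other and are not separate. WT cortex and hippocampus correlated at 0.241 to 0.79 over 9 pairs. In OLIGO cells, checked after seeing the data, r was 0.885, 0.85 and 0.516 for replicates 1, 2 and 3. Blocked values stand beside results whose calls they change.

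The genes named are the 6 members, other Hcn, Kcnq and Kcne genes that passed a test or exceeded 20 CPM in a class, up to 6 called partners per comparison, the 3 genes most like each member (none for Hcn4), and Grin1. Some other members of these families are not reported here. The members and lists were chosen with earlier results of these data known.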

Additional observations from a re-analysis of the deposited data

Results flagged for a closer look

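Among 31 groups of WT libraries (a gene in a class), 4 had 1 library far from the rest, its gap to the next library a large part of the whole range. The limit used (Dixon's, 95%) lets chance give about 1 such group in 20; these groups share libraries and are not independent. Hcn3 in PVALB cells was 46.7 CPM in WT hippocampus replicate 1, where the next library had 16.5 (gap 0.892 of the range). In NGFC cells the same library had 35.9 CPM of Hcn3, and the next 16.1 (0.675 of the range). Pex5l in GLUT cells was 34.0 CPM in WT hippocampus replicate 2, against 168 in the next and 209 in the highest of 5 libraries (0.767 of the range). It was 1 UMI in 27 cells, where 3 counts would be 102 CPM. Kcnq3 in OPC cells was 0 CPM in WT cortex replicate 1, which had 36 OPC cells, against 34.2 in the next (0.723 of the range). The depth of those cells allows up to 45.8 CPM at a count of 0.

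The region change of Hcn2 differed between cell classes by a test of the difference: the change in OLIGO minus that in SST cells was -2.17 (log2; adjusted p 0.00401). That comparison was added after seeing the data, and leaving out any 1 of 5 of the 6 libraries lost the call. What lies behind these values was not tested.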

How the results depend on the processing

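Of 1921 member changes recomputed under alternatives, 130 changed sign, and none of those was of a called change. Calls were lost in 17 and gained in 27. The Pex5l and Kcnq3 calls in the class comparisons, and both calls of OLIGO minus OPC, held under every alternative run. Genotype comparisons kept 0 called members under every alternative. The cause of the changes listed here was not tested.

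With the replicate block, 1 member each was called between regions in SST, PVALB and OLIGO cells. With pair 2 also left out the numbers were 1, 2 and 2, with pair 3 left out 1 in PVALB and 2 in OLIGO, and with pair 1 left out 1 in OLIGO. All genes called in SST, PVALB and OLIGO cells numbered 339, 64 and 9 with the block. With pair 2 also left out they numbered 721, 262 and 241. The replicate block changed no other call. Without the library block 1 member was called in PVALB minus SST and 1 in NGFC minus PVALB. All genes called there numbered 486 and 760, against 2345 and 2435 with the block. Over libraries left out the members called ran from 1 to 3 and 1 to 2, and all genes from 1463 to 2536 and 1720 to 2448.

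For the region change of OLIGO minus SST, 2 members were called at an adjusted p of 0.05, 2 without the filter on low counts, 0 without the library block, and 0 to 1 over libraries left out. For OLIGO minus PVALB, 2 were called without the filter, 1 each with an adjusted p of 0.05, DESeq2, the strict cell filter, single-cell classes and without shallow clusters, and 0 to 1 over libraries left out. For OLIGO minus NGFC, 1 was called without the filter, 1 without shallow clusters, and 0 to 1 over libraries left out. All genes called for OLIGO minus SST, 26 in the full fit, numbered 261 without the filter and 1 without the library block. Without the filter they numbered 141 for OLIGO minus PVALB (0 in the full fit) and 115 for OLIGO minus NGFC (5).

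Directions reversed for changes that were not called. Hcn3 in PVALB minus SST was 0.0324 with single-cell classes. Kcnq5 in NGFC minus PVALB was 0.0706 with DESeq2, 0.0271 with single-cell classes, and -0.23 to 0.16 over libraries left out (0.11 and 0.16 without WT cortex replicates 2 and 3). Kcnq3 in OLIGO minus OPC was -0.26 with library-size scaling.

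Counts of all genes moved more. They ran from 486 to 3324 for PVALB minus SST (2345 in the full fit), 914 to 3461 for NGFC minus SST (2445), 760 to 3488 for NGFC minus PVALB (2435) and 3391 to 6512 for OLIGO minus OPC (4822). Between regions they ran from 0 to 721 in SST (5), 0 to 262 in PVALB (2), 0 to 40 in NGFC (0) and 0 to 241 in OLIGO cells (0). Between genotypes up to 56 genes were called, in cortical PVALB cells without the filter on low counts.

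Null libraries numbered 2 per region, and 1 of them in cortex held 177 cells, which limits the genotype comparison. Hcn4 was too sparse to test at this depth. Droplet counts of 3′ ends do not separate isoforms of Pex5l or Kcnq3, and transcript levels do not measure channel currents. Regions and replicates were sequenced as separate libraries, so region and library cannot be told apart within a replicate.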
